A study of Rattus norvegicus with 9 samples.

Results

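The smooth muscle type contractile genes Acta2, Actg2, Tagln, Cnn1, Myh11, Lmod1, Smtn, Myl9, Tpm2 and Cald1 were followed across 3 ages of cultured rat cardiac fibroblasts, which lay down and remodel the extracellular matrix of the heart. The 10 genes were chosen by name, with earlier results of these data known. They were found by their symbols among the 17337 genes of the deposited count table. All 10 passed the filter on low counts, which left 11337 genes for testing. The RNA came from Sprague Dawley rat hearts at embryonic day 18 (fetal), postnatal day 1 (neonatal) and 7 weeks (adult), with 3 libraries per age and no other genotype or treatment. At every age, freshly isolated cells at passage 0 were grown until confluent in DMEM with fetal bovine serum, ascorbic acid and antibiotics, and were then lysed for RNA, so all values describe cells after a period in culture. The labels name no sort. They also do not say whether the libraries of an age came from separate animals or cultures, and p-values then measure only the spread between these samples. The comparison of ages is the question that the series design text names.

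Fibroblasts that take on a contractile state, called myofibroblasts, assemble actin filaments of the smooth muscle type into stress fibres and pull on the matrix around them. In smooth muscle the same genes build the contractile apparatus, in which myosin driven by light-chain phosphorylation moves along actin filaments that carry tropomyosin, caldesmon and calponin. Many of these genes are known targets of serum response factor (SRF), a transcription factor that binds the CArG box and works with myocardin or myocardin-related factors. TGF-beta, serum and a stiff substrate are known inducers of this programme in cultured fibroblasts.

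The upstream sequences of the 2 smooth muscle actins are shown because Actg2 was 73.0-fold and Acta2 2.01-fold lower in adult than in fetal cells, as described further on. They are the 250 bases before the annotated start in RefSeq (build GRCr8), written 5′ to 3′ on the strand of the gene, at chr1:241172504-241172753 (minus strand) for Acta2 and chr4:117594040-117594289 (minus strand) for Actg2. Capitals mark CArG boxes with at most 1 G or C in the core, where the box is CC, then 6 core bases, then GG.
Acta2: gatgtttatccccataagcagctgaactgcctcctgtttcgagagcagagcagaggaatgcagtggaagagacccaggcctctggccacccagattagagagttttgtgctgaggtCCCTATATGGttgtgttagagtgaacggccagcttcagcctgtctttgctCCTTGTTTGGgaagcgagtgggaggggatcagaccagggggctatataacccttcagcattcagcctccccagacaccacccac
Actg2: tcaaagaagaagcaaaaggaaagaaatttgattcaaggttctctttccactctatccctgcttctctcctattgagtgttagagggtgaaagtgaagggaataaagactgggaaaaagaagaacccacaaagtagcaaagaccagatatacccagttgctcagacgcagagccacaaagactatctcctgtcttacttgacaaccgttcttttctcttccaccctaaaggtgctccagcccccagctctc
Acta2 held 2 such boxes, CCCTATATGG from 134 to 125 bases before the start and CCTTGTTTGG from 84 to 75 bases before it. None was found in the Actg2 window. RefSeq entries were found for 6 of the 10 genes (Acta2, Actg2, Cnn1, Smtn, Tpm2 and Cald1, the last with 2 windows), and Acta2 was the only one of them with a match to this relaxed box. Of 33469 windows of the same length in the RefSeq table, 8.08% held a relaxed box on either strand. A box with only A and T in the core occurred in 1.5% of all windows and in none of these 7. The letters CATTCC, the core word bound by TEAD factors, were found on the reverse strand of Acta2, 196 to 191 bases before the start, and in 1 Cald1 window, against 12.1% of all windows on either strand. TATAAA was found in 1 Cald1 window, against 12.9% of all windows. A CATTCC or TATAAA match does not overlap a CArG box in these windows. A match is a description of letters in the window.

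Assigned counts ran from 13392825 to 22850491 per library, and the adult libraries were the shallowest (13392825 to 13810825). Levels are given as CPM, counts per 1000000 assigned counts after edgeR's TMM scaling. Levels of different genes are compared only as TPM, which also divides by exon length. Replicate 3 of the fetal libraries and replicate 1 of the adult libraries stood apart from the other 2 of their age. The summed CPM of 10 fibroblast markers, Col1a1 and Col1a2 among them, was 37658, 34668 and 19671 in the fetal libraries, 41520 to 45876 in the neonatal, and 19586, 23278 and 25210 in the adult libraries. The sum of these markers of the labelled cell type was thus highest in neonatal cells and low in fetal replicate 3 and adult replicate 1. Single markers differed, as Pdgfra and Tcf21 were highest in adult replicate 1 among the adult libraries. By the edgeR calls described below, 6 of the 10 were higher and 3 lower in adult than in fetal cells (34.9% and 35.5% of all tested genes). Against neonatal cells 4 were higher and 3 lower (31.6% and 31.8%). Between neonatal and fetal cells 4 were higher and 0 lower (18.3% and 18.0%). The part of these markers in the values of the 10 contractile genes was not tested. Summed CPM of 12 cardiomyocyte markers was 7087 to 10729 in fetal libraries, 5071 to 5622 in neonatal ones and 304 to 319 in adult ones, where Csrp3 and Nkx2-5 were at 0 and Tnnt2 made up nearly all of the sum. Summed CPM of 12 macrophage markers was 14.9 to 69.0, 163 to 180 and 4176 to 5831 in the same order of ages. In bulk RNA, fewer cells of a type and less RNA per cell cannot be told apart.

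In adult cells all 10 genes were lower than in neonatal cells, and 6 of the 10 (Acta2, Actg2, Cnn1, Smtn, Myl9 and Cald1) were also lower than in fetal cells. None was higher in adult cells than at either younger age. Between neonatal and fetal cells the genes split, with Myh11, Lmod1 and Tpm2 higher in neonatal cells, Actg2 lower, and the other 6 not past the threshold. Summed over the 10 genes, the level was 30932 ± 2877 TPM for fetal, 35637 ± 732 for neonatal and 15193 ± 4361 for adult libraries (mean ± SD, n = 3 per age, here and below).

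The calls used edgeR's quasi-likelihood test with Benjamini-Hochberg adjustment over 11337 genes and a threshold of 0.05. Of all genes tested, 63.5% were called between adult and neonatal cells (31.8% lower in adult), 70.5% between adult and fetal cells (35.5% lower in adult) and 36.3% between neonatal and fetal cells (18.3% higher and 18.0% lower in neonatal). Against these backgrounds the 10 genes had 10 lower calls, 6 lower calls, and 3 higher with 1 lower call. With library size alone as scaling, neonatal against fetal cells had 1 higher (Lmod1) and 2 lower calls (Actg2 and Cnn1), as Myh11 (adjusted p 0.0542) and Tpm2 (adjusted p 0.0623) were no longer called and Cnn1 was (adjusted p 0.0321). With TMM scaling the median log2 fold changes of the 10 genes were -1.48 for adult against neonatal and -0.81 for adult against fetal cells. For neonatal against fetal cells the median was 0.36. The median of all tested genes was -0.01 in each comparison. A difference of at least 1 on the log2 scale together with a call, lower in adult, was found for 8 of the 10 genes against neonatal cells (12.2% of all genes tested) and for 5 against fetal cells (15.8%). The test for any difference among the 3 ages called all 10, with adjusted p from 2.25e-08 to 0.0351, where 77.6% of all genes were called. The highest of these, for Tagln, was no longer under the threshold in 6 of 16 alternatives (library size alone as scaling, or without fetal replicate 3, any 1 neonatal library or adult replicate 2), with adjusted p up to 0.0930. Between adult and neonatal libraries no gene of the 10 overlapped (76.1% of all genes did not overlap). Between adult and fetal libraries 6 did not overlap (71.8%), and between neonatal and fetal libraries 9 did not overlap (57.4%).

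Leaving out fetal replicate 3 and adult replicate 1 together, an alternative chosen after seeing the data, gave 10 lower calls against neonatal cells, 9 lower and 1 higher (Tpm2) against fetal cells, and 7 higher and 2 lower calls between neonatal and fetal cells. Leaving out fetal replicate 3, or any 1 neonatal library, left only Actg2 called between neonatal and fetal cells, and leaving out adult replicate 1 gave 8 calls there.

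**Figure D1:**
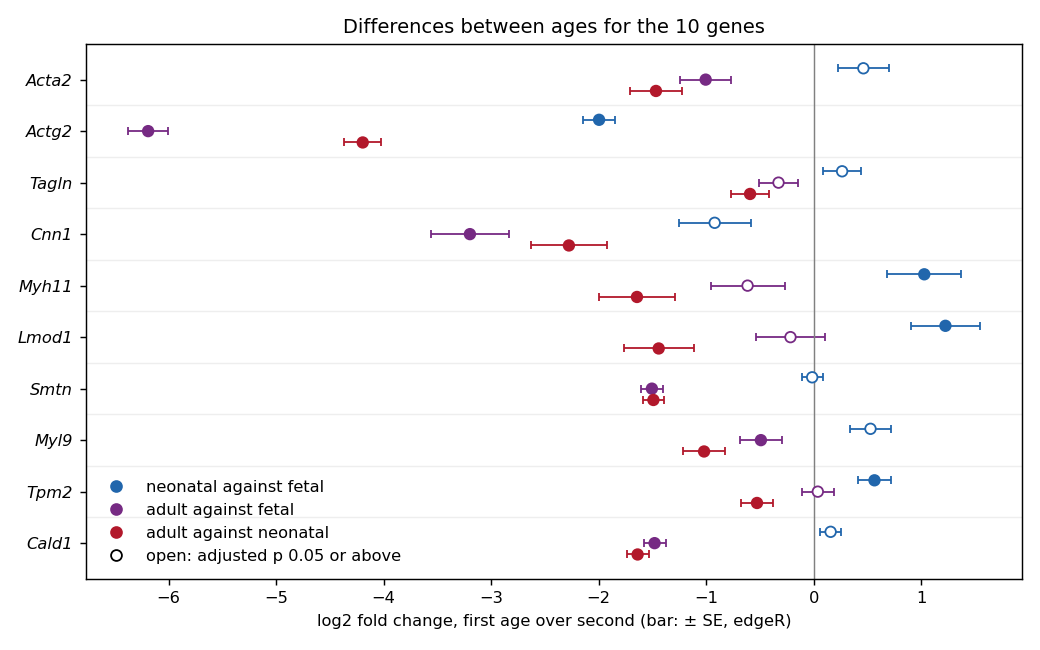
Log2 fold change of the 10 genes (x axis) in the 3 comparisons of ages, each point the edgeR estimate with ± SE, filled where the adjusted p was under 0.05. Every point for adult against neonatal is filled and left of 0, from -0.53 for Tpm2 to -4.19 for Actg2, while the neonatal against fetal points lie on both sides of 0.

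Acta2 encodes smooth muscle alpha-actin, the filament protein by which myofibroblasts are commonly identified (rn6 chr1:252537614-252550394, minus strand). Its level was 8215, 7992 and 5350 CPM in the fetal libraries, 10194, 9812 and 9696 in the neonatal and 2338, 3957 and 4449 in the adult libraries. All adult libraries lay below all fetal ones, and all neonatal ones lay above both. Acta2 had the highest mean TPM of all genes in fetal (11765) and neonatal cells (15127), and ranked 12th in adult cells (4798). Ranks here and below cover assigned reads only, and some genes, such as Actg1 and Myl6, had few or none. It fell by 1.00 on the log2 scale in adult against fetal cells (SE 0.239, edgeR adjusted p 0.00409) and by 1.47 against neonatal cells (SE 0.241, adjusted p 0.000564). These are 2.01-fold and 2.76-fold lower levels. The neonatal excess over fetal cells, 0.46 (SE 0.237), did not pass (adjusted p 0.152).

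Actg2 encodes smooth muscle gamma-actin, the isoform known best from visceral smooth muscle (rn6 chr4:115215160-115229684, minus strand). The fetal libraries held 951, 883 and 670 CPM, the neonatal 208, 208 and 211, and the adult 9.26, 13.7 and 11.3. The 3 ages formed separate steps with no overlap. It was 73.0-fold lower in adult than in fetal cells (log2 fold change -6.19, SE 0.186, edgeR adjusted p 1.03e-08) and 18.3-fold lower than in neonatal cells (-4.19, SE 0.172, adjusted p 1.20e-07). It was also 3.99-fold lower in neonatal than in fetal cells (adjusted p 3.76e-05). Actg2 was the only one of the 10 called lower at both steps, a pattern found in 7.99% of all tested genes. Cnn1, described below, also fell at both steps without overlap, but its first step did not pass (edgeR adjusted p 0.0611). In TPM the gene ranked 69th in fetal, 424th in neonatal and 6452nd in adult cells. The step from Acta2 to Actg2 in adult cells, 4798 against 17.3 TPM, was thus far wider than in fetal cells, 11765 against 1548 TPM.

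Tagln encodes transgelin (SM22), an actin-binding protein of smooth muscle and an early marker of that lineage (rn6 chr8:50222895-50228369, minus strand). Fetal libraries held 4516, 4297 and 4315 CPM, neonatal libraries 5423, 5174 and 5174, and adult libraries 2415, 3795 and 4256. The adult values were lowest and most spread, and the third adult library came close to the fetal ones. Tagln stayed among the 5 highest genes by mean TPM at every age (9473 in fetal, 10569 in neonatal, 6147 in adult cells). It fell by 0.59 in adult against neonatal cells (SE 0.178, edgeR adjusted p 0.0158). The adult against fetal value was -0.33 (SE 0.177, adjusted p 0.125), and neonatal against fetal was 0.26 (SE 0.177, adjusted p 0.265).

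Cnn1 encodes calponin 1, which binds actin and slows myosin cycling, and is taken as a marker of differentiated smooth muscle (rn6 chr8:23113086-23121748, plus strand). The fetal libraries were at 779, 744 and 721 CPM, the neonatal at 398, 392 and 395, and the adult at 34.3, 101 and 109. The ages did not overlap, and adult replicate 1 was at 0.326 of the mean of the other 2 adult libraries. Cnn1 was 9.17-fold lower in adult than in fetal cells (log2 fold change -3.20, SE 0.365, edgeR adjusted p 5.59e-05) and 4.85-fold lower than in neonatal cells (-2.28, SE 0.352, adjusted p 0.000488). Between neonatal and fetal cells the value was -0.92 (SE 0.336), and the adjusted p was 0.0611. That step passed the threshold in 5 of 17 alternatives, among them DESeq2 and the fit on only the libraries of those ages.

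Smtn encodes smoothelin, a protein of contractile smooth muscle that sits on actin filaments (rn6 chr14:83755142-83776863, minus strand). Its CPM was 283, 248 and 215 in fetal, 239, 251 and 248.9 in neonatal, and 84.0, 93.0 and 85.8 in adult libraries. The fetal and neonatal values overlapped, and the adult ones lay far below with little spread. Smtn was 2.84-fold lower in adult than in fetal cells (edgeR adjusted p 1.14e-06) and 2.81-fold lower than in neonatal cells (log2 fold change -1.49, SE 0.0993, adjusted p 2.13e-06). Neonatal and fetal cells differed by -0.014 on the log2 scale (SE 0.0964, adjusted p 0.925).

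Cald1 encodes caldesmon, which holds myosin and actin together and restrains their sliding, and is made in a smooth muscle and a non-muscle form that gene counts do not separate (rn6 chr4:62221011-62290229, plus strand). It was at 1817, 1935 and 1917 CPM in fetal, 2161, 2143 and 2019 in neonatal, and 578, 726 and 728 in adult libraries. As with Smtn, the younger ages were near each other and the adult libraries stood apart. Cald1 fell by 1.48 in adult against fetal cells (SE 0.102, edgeR adjusted p 1.52e-06) and by 1.64 against neonatal cells (SE 0.103, adjusted p 1.49e-06).

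Myh11 encodes the smooth muscle myosin heavy chain, the motor of smooth muscle and its most specific marker (rn6 chr10:764421-859184, plus strand). Fetal libraries held 304, 316 and 140 CPM, neonatal libraries 521, 518 and 512, and adult libraries 94.6, 192 and 210. The neonatal libraries were highest and close to each other, while the fetal and adult ones overlapped. Myh11 was 2.04-fold higher in neonatal than in fetal cells (log2 fold change 1.03, SE 0.345, edgeR adjusted p 0.0455) and fell by 1.64 in adult against neonatal cells (SE 0.352, adjusted p 0.00310). The adult against fetal value of -0.61 (SE 0.345) did not pass (adjusted p 0.139). The neonatal against fetal call was lost under 9 of 17 alternatives.

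Lmod1 encodes leiomodin 1, which starts new actin filaments in smooth muscle (rn6 chr13:52147568-52189689, plus strand). Its CPM was 112, 114 and 54.9 in fetal, 222, 217 and 217 in neonatal, and 47.3, 94.0 and 100.2 in adult libraries. The pattern followed that of Myh11, including the low fetal replicate 3 and the low adult replicate 1. Lmod1 was 2.34-fold higher in neonatal than in fetal cells (log2 fold change 1.23, SE 0.320, edgeR adjusted p 0.0181) and fell by 1.44 in adult against neonatal cells (SE 0.324, adjusted p 0.00403). The adult against fetal value was -0.22 (SE 0.320, adjusted p 0.563), and it was 0.06 without adult replicate 1.

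Myl9 encodes the regulatory myosin light chain of smooth muscle, the chain whose phosphorylation switches the motor on (rn6 chr3:152860346-152863959, plus strand). Fetal libraries were at 1490, 1430 and 1001 CPM, neonatal libraries at 1933, 1871 and 1853, and adult libraries at 676, 1001 and 1113. The lowest fetal library lay within the adult range. Myl9 fell by 1.02 in adult against neonatal cells (SE 0.196, edgeR adjusted p 0.00148) and by 0.49 against fetal cells (SE 0.195, adjusted p 0.0460). The latter call was lost under 9 of 17 alternatives, with adjusted p up to 0.133.

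Tpm2 encodes beta-tropomyosin, which lies along the actin filament and gates access of myosin (rn6 chr5:59016621-59025631, minus strand). It was at 1527, 1446 and 1331 CPM in fetal, 2175, 2067 and 2129 in neonatal, and 1107, 1558 and 1756 in adult libraries. The adult range enclosed the fetal one, and the neonatal libraries stood above both. Tpm2 was 1.48-fold higher in neonatal than in fetal cells (log2 fold change 0.57, SE 0.150, edgeR adjusted p 0.0176) and fell by 0.53 in adult against neonatal cells (SE 0.150, adjusted p 0.0121). Adult against fetal was 0.04 (SE 0.150, adjusted p 0.829), a value whose sign changed without fetal replicate 3, adult replicate 2 or adult replicate 3 (down to -0.10). Myh11, Lmod1 and Tpm2 were called both higher in neonatal than in fetal cells and lower in adult than in neonatal cells, and 4.53% of all tested genes had that pattern.

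**Figure D2:**
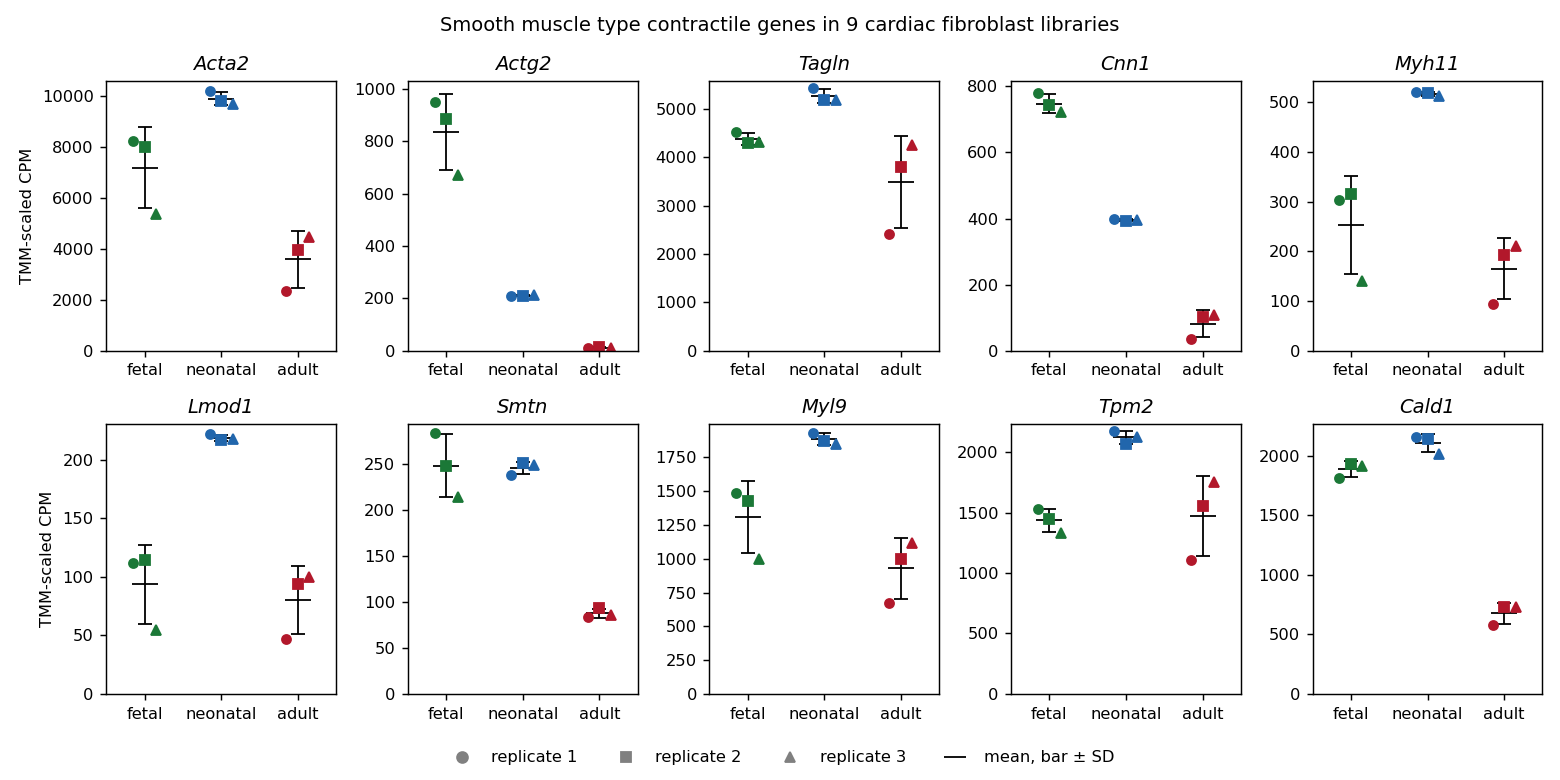
TMM-scaled CPM (y axis, each panel on its own scale) of the 10 genes in the 9 libraries, grouped by age, with the mean and ± SD of 3 libraries. The neonatal libraries lie close together in each panel, while fetal replicate 3 and adult replicate 1 (triangle and circle) sit below the others of their age for Acta2, Myh11, Lmod1 and Myl9.

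The spread within an age was shared by most of the genes. Fetal replicate 3 was at 0.452 of the mean of the other 2 fetal libraries for Myh11, 0.487 for Lmod1, 0.660 for Acta2 and 0.686 for Myl9, but at 0.947 for Cnn1, 0.979 for Tagln and 1.02 for Cald1. In adult cells replicate 1 was below the mean of the other 2 for all 10 genes, from 0.326 for Cnn1 to 0.939 for Smtn. The same libraries were lower in other transcripts too. The summed CPM of 22 matrix genes was 108444, 107560 and 54520 in the fetal libraries and 62324, 69912 and 74263 in the adult libraries. The summed smooth muscle and pericyte markers in fetal libraries were 3088, 3122 and 1555 CPM. The part of these differences in the results was not tested.

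The balance between smooth muscle type genes and their relatives within a protein family was taken as a share of TPM, which does not depend on the scaling between libraries. The smooth muscle actins Acta2 and Actg2 made up 50.7%, 50.6% and 39.8% of the TPM of 6 actin genes in fetal libraries, 56.7% ± 0.598 on average in neonatal, and 27.2%, 37.2% and 39.6% in adult libraries. The ages did not overlap, though fetal replicate 3 and adult replicate 3 nearly met. Actb, the cytoplasmic beta-actin, took 37.3% of actin TPM in fetal, 36.6% in neonatal and 65.3% in adult cells. Its own level was not called in any comparison (5801, 5976 and 6023 CPM, with edgeR adjusted p 0.723, 0.591 and 0.918). Among the 2 smooth muscle actins alone, the Actg2 part was 11.7% ± 0.664 for fetal, 2.34% ± 0.0743 for neonatal and 0.374% ± 0.0808 for adult libraries. Few reads were assigned to cytoplasmic gamma-actin, Actg1 (2.77 to 3.81 CPM), whose exons are annotated on 2 chromosomes, so its part of the actin pool is uncertain. The shares of the other actins in the pool of 6 are uncertain as well.

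The striated muscle actins also fell with age. Actc1, cardiac alpha-actin, was at 2714 ± 160 CPM in fetal and 1256 ± 60.3 in neonatal cells (log2 fold change -1.11, edgeR adjusted p 0.000360), and adult libraries held 5, 2 and 8 counts of it. Acta1, skeletal alpha-actin, fell by 2.10 from fetal to neonatal cells (adjusted p 0.000913) and by 6.28 in adult against fetal cells (adjusted p 1.21e-06). Cardiomyocyte markers, given above, moved in the same order of ages, and their part in the actin values was not tested.

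Myh11 was 9.61% ± 2.55 of the TPM of 4 class II heavy chains of smooth and non-muscle type in fetal, 24.5% ± 0.421 in neonatal, and 18.1%, 34.8% and 37.9% in adult libraries. Myh10, the non-muscle heavy chain IIB, supplied most of the remainder and fell from 2644 CPM in fetal to 429 CPM in adult cells (log2 fold change -2.62, adjusted p 2.13e-07). Myh9 shares exon bases with another gene model and had 6.04 to 12.9 CPM, so its share is uncertain. The Myh11 and Myh10 shares, taken over a sum that includes Myh9, are uncertain as well. Tpm2 made up 26.3% ± 3.28, 36.7% ± 0.379 and 40.9% ± 5.29 of tropomyosin TPM in the order of ages, while Tpm1 went from 32.0% to 22.4% and 13.9%. Tpm1 itself fell by 1.82 in adult against fetal cells (adjusted p 9.76e-07). For Myh11 and Tpm2 the adult and neonatal shares overlapped (exact permutation p 0.4 for each).

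Cnn1 supplied 59.8% ± 1.28 of the TPM of Cnn1 and Cnn3 in fetal, 42.4% ± 0.0842 in neonatal, and 9.70%, 21.97% and 23.5% in adult libraries. Cnn3, the broadly expressed acidic calponin, fell by 0.55 in adult against fetal cells (adjusted p 7.24e-05), beside the -3.20 of Cnn1. The Tagln share of transgelin TPM was 80.9% ± 1.34, 78.6% ± 0.231 and 67.9% ± 7.31 in the order fetal, neonatal, adult, and Tagln2, its relative in many cell types, rose by 0.62 in adult against fetal cells (adjusted p 0.000175). Myl9 made up 54.5% ± 4.93, 61.1% ± 0.229 and 44.8% ± 4.99 of the regulatory light chains Myl9, Myl12a and Myl12b. Myl12b rose by 0.92 in adult against fetal cells (adjusted p 5.85e-06). Two-sided exact permutation tests were run on 7 shares and the summed level over 3 pairs of ages, 24 tests. With 3 libraries against 3 the smallest p is 0.1. All but the 2 overlapping comparisons reached it, with an adjusted p of 0.109, so none passed the threshold. Of 15 relatives of the 10 genes that were tested, 9 were lower and 2 higher in adult than in fetal cells, 10 lower and 2 higher in adult than in neonatal cells, and 5 lower and 2 higher in neonatal than in fetal cells. The shares of all tested genes were 35.5% lower and 34.9% higher, 31.8% and 31.6%, and 18.0% and 18.3%, in the same order. Tpm4 fell by 0.61 in adult against fetal cells (adjusted p 0.000519), and Smtnl2, a smoothelin-like gene, was called lower there, at a mean of 11.3 CPM in fetal, 6.24 in neonatal and 0.695 in adult cells. Myl6 and Tagln3 had 0 counts in every library, Lmod2 and Smtnl1 did not pass the filter, and Cnn2 and Lmod3 were not analysed here. Myl6 shares exon bases with other gene models, so its 0 is uncertain.

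**Figure D3:**
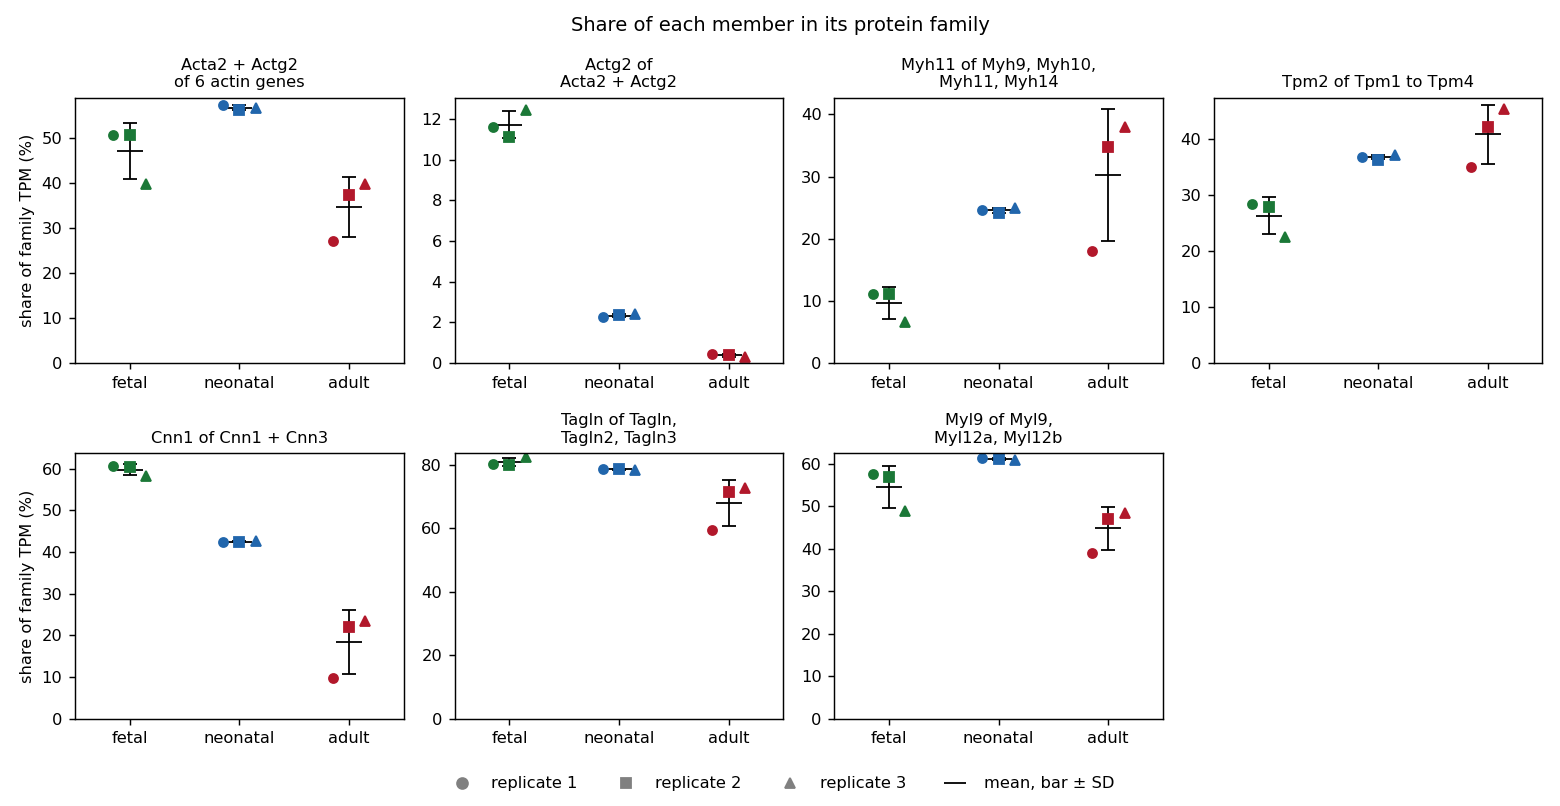
Share of family TPM in percent (y axis, from 0) held by the smooth muscle type gene or genes of 7 protein families or pairs, by age, with each library as a point and the mean ± SD of 3 libraries. Mean Actg2 is at 11.7% of smooth muscle actin in fetal and 0.374% in adult libraries and Cnn1 at 59.8% and 18.4% of its pair, while the Myh11 and Tpm2 shares are lowest in fetal libraries. The Acta2 plus Actg2 share of all actins and the Myh11 share are uncertain, as few reads were assigned to Actg1 and Myh9.

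The profiles of the 10 genes over the 9 libraries were compared by the root mean square difference of their centred log2 CPM, where a lower value means a more alike profile. The closest pairs were Smtn and Cald1 (0.16), Myh11 and Lmod1 (0.16), Tagln and Tpm2 (0.17), Tagln and Myl9 (0.23) and Acta2 and Myl9 (0.24). The farthest pair was Actg2 and Tpm2 (2.55). Relative to Acta2 counts in the same library, which needs no scaling between libraries, Actg2 went from a mean log2 ratio of -3.10 (fetal) to -5.56 (neonatal) and -8.26 (adult), and Cnn1 from -3.24 to -4.65 and -5.58. Myl9 moved the other way, from -2.45 and -2.39 to -1.92, as did Tpm2, from -2.30 and -2.22 to -1.26, and Tagln, from -0.69 and -0.91 to -0.03. Myh11 was at -4.89, -4.26 and -4.47 and Lmod1 at -6.31, -5.50 and -5.50, both lowest in fetal cells. Smtn was at -4.84, -5.33 and -5.30 and Cald1 at -1.90, -2.23 and -2.36, both highest in fetal cells. The 10 genes thus did not keep fixed ratios to Acta2 across the ages.

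Among 8323 genes with a mean of at least 10 CPM, those with the profile most like Acta2 over the 9 libraries were Pxdn (0.10), Specc1 (0.16), Fstl1 (0.17), Pam (0.17) and St6gal1 (0.18). Pxdn encodes peroxidasin, an enzyme that crosslinks basement membrane collagen, and Fstl1 a secreted glycoprotein. Myl9 was the nearest of the other contractile genes, at place 29, whereas Cnn1 was at place 6595 and Actg2 at 7980. The profiles most like Actg2 were those of Sema3e (0.26), Nebl (0.41), Acta1 (0.47), Rbm20 (0.51) and Pcdh7 (0.54). Nebl encodes nebulette, a Z-disc protein of heart muscle, and Rbm20 a splicing factor of heart muscle. Libraries share depth, age and culture across all these genes, and the values are descriptions.

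**Figure D4:**
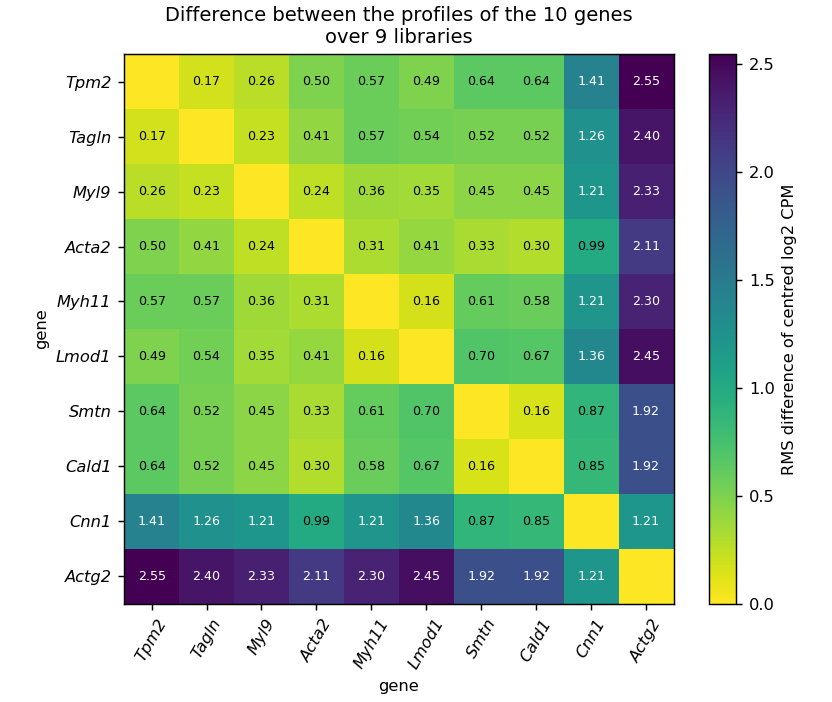
Root mean square difference of centred log2 CPM over 9 libraries for each pair of the 10 genes (both axes), with darker and lighter cells read on the colour bar. Actg2 is farthest from the rest, up to 2.55 from Tpm2, and Smtn with Cald1 and Myh11 with Lmod1 are among the closest pairs at 0.16.

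Other genes of the smooth muscle contractile apparatus and its membrane anchors fell in adult cells in most cases. Of 32 listed genes 28 were tested. In adult against fetal cells 21 were lower and 3 higher, and against neonatal cells 21 were lower and 1 higher, with median log2 fold changes of -1.29 and -1.25 and -0.01 over all tested genes. Between neonatal and fetal cells 6 were higher and 7 lower (median 0.06). Of all tested genes, 35.5% were lower and 34.9% higher in adult than in fetal cells, and 31.8% and 31.6% against neonatal cells. In neonatal against fetal cells 18.3% of them were higher and 18.0% lower. Flna, the actin crosslinker filamin A, fell by 0.84 in adult against fetal cells (adjusted p 0.000598), and Actn4, alpha-actinin 4, by 0.94 (adjusted p 4.34e-05). Pgm5, a protein of adhesion sites in muscle, was at 56.5, 5.21 and 0.521 CPM on average in fetal, neonatal and adult cells, and fell by 3.43 already from fetal to neonatal cells (adjusted p 1.70e-06). Ldb3, a Z-disc protein, went from 117 to 58.2 and 0.250 CPM, and Synm, the intermediate filament protein synemin, was at 13.9, 13.6 and 0.522 CPM. The cardiomyocyte markers given above fell in the same order of ages as Pgm5 and Ldb3, and their part in these values was not tested. The higher genes in adult against fetal cells were Ppp1r14a, which inhibits myosin phosphatase, Aoc3, an amine oxidase of smooth muscle and vessels, and Fbxo32, a ubiquitin ligase of muscle.

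Of 20 listed regulators of these genes 16 were tested. In adult cells 7 were lower and 2 higher than in fetal cells (35.5% and 34.9% of all tested genes). Against neonatal cells 9 were lower and 1 higher (31.8% and 31.6%). Between neonatal and fetal cells 4 were higher and 2 lower in neonatal cells (18.3% and 18.0%). Myocd encodes myocardin, the SRF partner of heart and smooth muscle. It was at 40.6, 45.1 and 26.7 CPM in fetal and 18.9, 18.6 and 15.5 in neonatal libraries, and the adult libraries held 1, 3 and 4 counts. Myocd fell by 1.08 from fetal to neonatal cells (edgeR adjusted p 0.00296) and was also called lower in adult than in neonatal cells. Calls lower at both steps, as for Actg2, were found for 7.99% of all tested genes. Cardiomyocyte markers, given above, fell in the same order of ages. A part of Myocd in the values of the 10 genes was not tested. Srf itself fell by only 0.26 in adult against fetal cells (adjusted p 0.0139). Klf4, a factor known to restrain smooth muscle genes, was at 19.0, 23.3 and 10.4 CPM in fetal, 66.8, 69.2 and 71.8 in neonatal, and 280, 113 and 112 in adult libraries. It rose by 3.25 in adult against fetal cells (adjusted p 0.000119) and by 1.28 against neonatal cells (adjusted p 0.0171). Its highest value was in adult replicate 1, the adult library in which each of the 10 contractile genes was lowest. Pdgfra, Tcf21, Tgfbr3 and Cilp were also highest in that library among the adult ones. This rests on 1 library, and a part of Klf4 in the values of the 10 genes was not tested. Fhl1, a LIM-domain protein of muscle, fell by 2.15 in adult against fetal cells (adjusted p 9.87e-05). Csrp1 and Fhl2, LIM-domain proteins of the actin skeleton, rose by 0.37 and 0.73 in neonatal against fetal cells (adjusted p 0.0210 and 0.0196). Mrtfa, Mrtfb, Scai and Ablim1 were not analysed here.

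Genes of the TGF-beta arm went both ways, as all tested genes did. Of 13 tested genes 6 were higher and 6 lower in adult than in fetal cells, 5 and 5 in adult than in neonatal cells, and 4 higher and 2 lower in neonatal than in fetal cells. The shares of all tested genes were 34.9% higher and 35.5% lower, 31.6% and 31.8%, and 18.3% and 18.0%, in the same order. Tgfb1, the best-known inducer of Acta2 in fibroblasts, was at 78.6, 92.2 and 297 CPM on average in fetal, neonatal and adult cells and rose by 1.92 in adult against fetal cells (adjusted p 3.25e-08). Tgfb2 fell by 1.69 in the same comparison (adjusted p 0.000196), and Tgfb3, at 906, 1734 and 559 CPM, fell by 1.63 in adult against neonatal cells (adjusted p 0.00419). Eng and Tgfbr3, both co-receptors, rose by 2.37 and 2.23 in adult against fetal cells (adjusted p 3.76e-06 and 0.000732). The RNA levels of the ligands thus differed in direction, and mean Tgfb3 had the same order of ages as mean Acta2. A part of the ligands in the level of Acta2 was not tested.

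Matrix and activated fibroblast genes were called in both directions, with most calls lower in adult against neonatal cells. Their median log2 fold change there was -0.97, beside -0.40 for adult against fetal and 0.40 for neonatal against fetal cells. Over all tested genes the median was -0.01 in each comparison. Of 22 tested, 5 were higher and 8 lower in adult than in fetal cells, 4 higher and 13 lower in adult than in neonatal cells, and 6 higher and 3 lower in neonatal than in fetal cells. The shares of all tested genes were 34.9% higher and 35.5% lower, 31.6% and 31.8%, and 18.3% and 18.0%, in the same order. Col3a1 (12971, 30805 and 9468 CPM) and Sparc (7259, 14195 and 7148 CPM) were highest in neonatal cells, and both were called higher there than in fetal cells and lower in adult than in neonatal cells, the pattern of Myh11, Lmod1 and Tpm2. Their edgeR adjusted p were 0.00647 and 0.000413 for Col3a1, and 0.00876 and 0.00314 for Sparc. Col1a1 fell by 0.80 in adult against fetal cells (adjusted p 0.0252). Tnc, a matrix glycoprotein of developing and wounded tissue, and Cdh11, a cadherin of mesenchymal cells, fell by 3.92 and 2.36 in that comparison (adjusted p 1.17e-07 and 2.53e-08). Cilp, a matrix protein of the cartilage intermediate layer that is also made by cardiac fibroblasts, rose by 5.05 (adjusted p 3.85e-06).

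Markers of other cells that use these genes were read beside them. Of 12 smooth muscle and pericyte markers, 5 were lower and 3 higher in adult than in fetal cells (35.5% and 34.9% of all tested genes). Against neonatal cells 9 of the 12 were lower and 1 higher in adult cells (31.8% and 31.6%). In neonatal against fetal cells 4 of these markers were higher and 2 lower (18.3% and 18.0%). The summed CPM of the 12 markers was 1555 to 3122 for fetal, 4636 to 4782 for neonatal and 1824 to 2049 for adult libraries. None of them was at 0 in every library of an age. Of these 12, Des, Myocd, Kcnmb1 and Itga8 are also on the lists of contractile genes or regulators. Kcnmb1, a potassium channel subunit of smooth muscle, was at 9.84, 34.9 and 9.06 CPM and was called higher in neonatal than in fetal cells (adjusted p 0.00123). All 12 tested cardiomyocyte markers were lower in adult cells in both comparisons and 10 were lower in neonatal than in fetal cells, while all 12 macrophage markers were higher in adult cells in both comparisons. The part of these cell types in the values of the 10 genes was not tested.

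**Figure D5:**
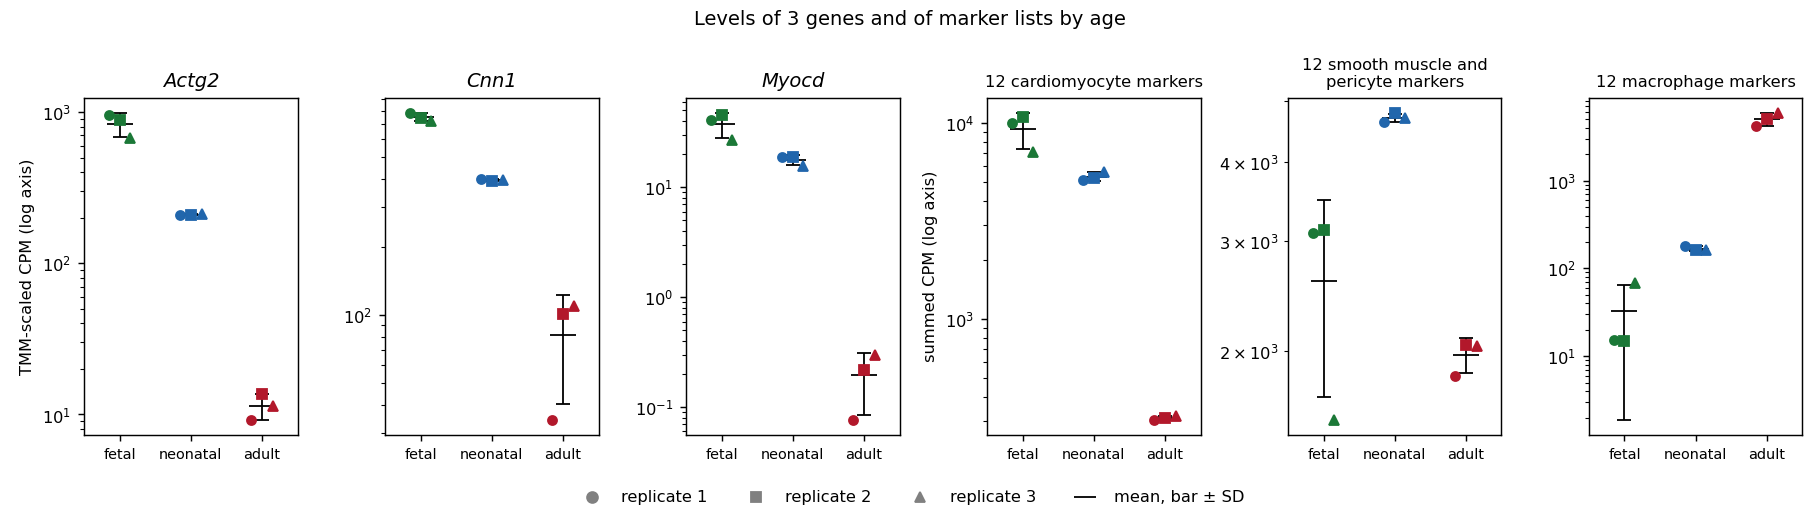
CPM on a log axis of Actg2, Cnn1 and Myocd and summed CPM of 12 cardiomyocyte, 12 smooth muscle and pericyte, and 12 macrophage markers in each library by age, with the mean ± SD of 3 libraries. Actg2, Cnn1, Myocd and the cardiomyocyte sum step down from fetal to adult, the smooth muscle and pericyte sum is highest in neonatal libraries at 4636 to 4782, and the macrophage sum climbs to 4176 to 5831 in adult libraries.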

How the data were processed

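RNA-seq of 9 libraries was used, 3 each from fetal, neonatal and adult cells, grouped by the labelled age. The authors made the gene counts with featureCounts 1.6.3 on an rn6 annotation with only the annotation and output options given, per the file headers, so counting was unstranded and left out reads mapped to several places. FastQC, Trimmomatic 0.39, STAR 2.5.2b and DESeq2 are named in the submitters' processing notes. The second deposited table holds normalized signal values, which equal the counts divided by 1 size factor per library, and it was used only as an alternative scaling. From the counts, edgeR 4.0.16 (TMM, filterByExpr, robust quasi-likelihood fit over all 9 libraries, R 4.3.3) gave log2 fold changes and Benjamini-Hochberg adjusted p over 11337 genes, with no covariate. The script was tested on simulated data. CPM were TMM-scaled, TPM were computed from counts and exon lengths, and likeness used log2 CPM with a prior count of 2. Upstream windows came from RefSeq GRCr8, which is not the build of the counts, and rn6 coordinates are those of the count table. No exon base of the 10 genes is shared with another annotated gene. Depth was 13392825 to 22850491 counts. No pair of libraries within an age matched within counting noise, but pairs differed widely in closeness. Chi-square per degree of freedom was 2.05 to 2.76 between neonatal libraries and 3.94 between fetal replicates 1 and 2. It was 90.0 and 97.3 for pairs with fetal replicate 3. For pairs with adult replicate 1 it was 25.8 and 43.0, and for adult replicates 2 and 3 it was 6.76.

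The 10 genes and all other lists were chosen with earlier results of these data known. The rule for named genes covered all 10 genes and their relatives, and from each other list the genes with the highest mean TPM or largest changes. Genes named besides these (Srf, Ppp1r14a, Aoc3, Fbxo32, Kcnmb1 and those in the last part) were chosen after their values were seen. Alternatives were DESeq2 1.42.0, other scalings, filters, fits on 2 ages, a replicate block, a minimum fold change and leaving out libraries.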

Additional observations from a re-analysis of the deposited data

How the results depend on the processing

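The 10 lower calls in adult against neonatal cells held under all 17 alternatives run per gene. A further test against a minimum fold change of 1 on the log2 scale called 4 (Actg2, Cnn1, Smtn and Cald1). Neonatal against fetal, with 4 genes called, gave 7 with only the libraries of those 2 ages, 1 with the minimum fold change, 9 without fetal replicate 3 and adult replicate 1 together, and 1 to 8 when single libraries were left out. Adult against fetal, with 6 called, gave 10 without those libraries together and 5 to 7 with single libraries left out. With the replicate block the counts were 3, 5 and 10 for neonatal against fetal, adult against fetal and adult against neonatal cells, and the lost calls were Myh11 (adjusted p 0.0720) and Myl9 (0.0774). Deviations of same-numbered libraries correlated between -0.065 and 0.052, and those of differently numbered libraries between -0.055 and 0.080. With 3 libraries per age these values cannot settle whether the numbers pair the samples. Signs changed for values near 0 that were not called. Cald1 in neonatal against fetal cells was -0.015 and Tpm2 in adult against fetal cells -0.065 with library size alone as scaling. With single libraries left out, Tpm2 ran from -0.10 to 0.21 (-0.016 without fetal replicate 3, -0.0019 without adult replicate 2, -0.10 without adult replicate 3). Smtn in neonatal against fetal cells was 0.088 without fetal replicate 1 and 0.016 without neonatal replicate 1, and Lmod1 in adult against fetal cells ran from -0.49 without fetal replicate 3 to 0.056 without adult replicate 1. The median log2 CPM of the 10 genes, a middle value and not a sum, differed by -0.080 in neonatal against fetal cells (exact permutation p 0.7). Their summed CPM was higher in neonatal (22456 to 23474) than in fetal libraries (15716 to 19994). The cause of the differing sign was not tested. Library size alone moved the median of all genes by -0.17 in neonatal against fetal and -0.11 in adult against fetal cells, and the share of higher calls from 50.4% to 29.0% and from 49.5% to 43.4%, and gave 1 higher and 2 lower of the 10 genes in neonatal against fetal cells. DESeq2 called 6, 6 and 10 of the genes. Of the values for single genes under an alternative, 608 kept direction and side of the threshold, 33 were no longer past it, 21 were newly past it and 8 changed sign. Adult libraries were the shallowest, and genes with a few counts there, such as Myocd and Actc1, have no fitted fold change given.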

Other observations

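Adult replicate 1, the lowest adult library for all 10 contractile genes, was the highest adult library for several genes of other groups, which were picked after their values were seen. Pdgfra, a receptor of resting fibroblasts, was at 669, 384 and 245 CPM in adult replicates 1 to 3, above the 106 to 187 CPM of the fetal and neonatal libraries. Tcf21, a transcription factor of the fibroblast and epicardial lineage, was at 226, 113 and 108 CPM in the same libraries. Tgfbr3, the TGF-beta co-receptor betaglycan, was at 72.6, 37.1 and 24.4 CPM, and the matrix gene Cilp at 190, 137 and 92.9 CPM. The summed CPM of 6 epicardial or mesothelial markers was also highest in adult replicate 1, at 495, 303 and 210 in adult replicates 1 to 3. It was 137 to 197 in fetal and 145 to 152 in neonatal libraries. Of these 6 markers, 3 were called higher and 3 lower in adult than in fetal cells (34.9% and 35.5% of all tested genes). The summed macrophage markers, in contrast, were lowest in adult replicate 1, at 4176, 5081 and 5831 CPM in the 3 adult libraries. These are values of single libraries and were not tested.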
